A study of Mus musculus with 10 samples.

Results

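The genes described here are 9 that move, make or break down retinoids, the vitamin A family: Rbp4 and Stra6 (transport), Aldh1a1, Aldh1a2 and Aldh1a3 (synthesis of retinoic acid), Crabp1 and Crabp2 (binding inside the cell), and Cyp26a1 and Cyp26b1 (breakdown). The genes were chosen by name, and each was read through a probe set annotated to its symbol alone, selected on the highest mean signal over the 10 arrays where a gene had several. Every one of the 9 had a single probe set, so the mean decided nothing, and 9 of the 19938 genes tested are described. The group was drawn up with earlier results of these data in view, among them the difference in Crabp2, so the counts below describe these genes and support nothing about retinoid genes as a class.

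The arrays carried RNA of whole oviducts from prepubertal mice, 21 to 23 days old, with a lacZ knock-in at the progesterone receptor gene Pgr. In homozygous PRKO mice the insertion stops both receptor isoforms in every tissue, ovary included, and the comparison group was heterozygous PR+/- mice, which keep an intact allele and are fertile. All animals of both genotypes were given 5 IU eCG, which drives follicle growth, and 44 to 47 h later 5 IU hCG, which triggers ovulation, and were sampled 8 h after hCG. Oviducts of 3 mice were pooled per array, giving 5 arrays and 15 mice per genotype. The comparison asks which oviduct transcripts differ when the progesterone receptor is missing at this time. Samples before hCG and mice with 2 intact alleles are not analysed here.

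Retinol circulates bound to retinol-binding protein, the product of Rbp4, and can enter cells through the membrane receptor STRA6. Inside the cell it is oxidised reversibly to retinal and then irreversibly to retinoic acid by the ALDH1A enzymes. CRABP proteins carry retinoic acid, which acts through the nuclear receptors RAR and RXR, and CYP26 enzymes hydroxylate it towards removal. Retinoic acid patterns the female reproductive tract during development, and its target genes include those of its own carriers and of its breakdown.

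Across the series, array medians ran from 5.20 to 5.28 on the log2 scale, and pairs of arrays of 1 genotype correlated at 0.9877 to 0.9964 over genes. The spread of an array's values, as its interquartile range, was 3.37 to 3.48 in PR+/- and 3.13 to 3.42 in PRKO. It thus goes partly with genotype, and a fit with it as a covariate estimates the genotype difference less precisely. A call lost in that fit can come from the larger SE alone. Pgr checks the labels, and its log2 signal lay between 7.27 and 7.55 on PR+/- arrays and between 6.31 and 6.39 on PRKO arrays. Of 9 measured epithelial markers of the oviduct none was called, and their mean log2 signal spanned 8.61 to 8.85 in PR+/- and 8.56 to 8.87 in PRKO. All 8 smooth muscle markers were lower in PRKO, with list means of 9.35 to 9.53 against 8.44 to 8.70. The mean of 12 ovarian markers stood out on PR+/- replicate 4 (4.96) and PRKO replicate 3 (5.07), while the other 8 arrays lay between 4.01 and 4.30. With 1 value per gene and array, the number of arrays limits the precision.

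Of the 9 genes, 1 was higher in PRKO oviducts (Crabp2), 2 were lower (Rbp4 and Aldh1a1) and 6 were not called. A call means an adjusted p under 0.05 in limma's moderated linear model after Benjamini-Hochberg adjustment over all 19938 genes. By that rule 4.96% of all genes were called, 1.09% as higher and 3.87% as lower. The median log2 difference, PRKO minus PR+/-, was -0.020 over the 9 genes and 0.026 over all genes. In these tissue pools, fewer cells of a type and less RNA per cell cannot be told apart.

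**Figure D1:**
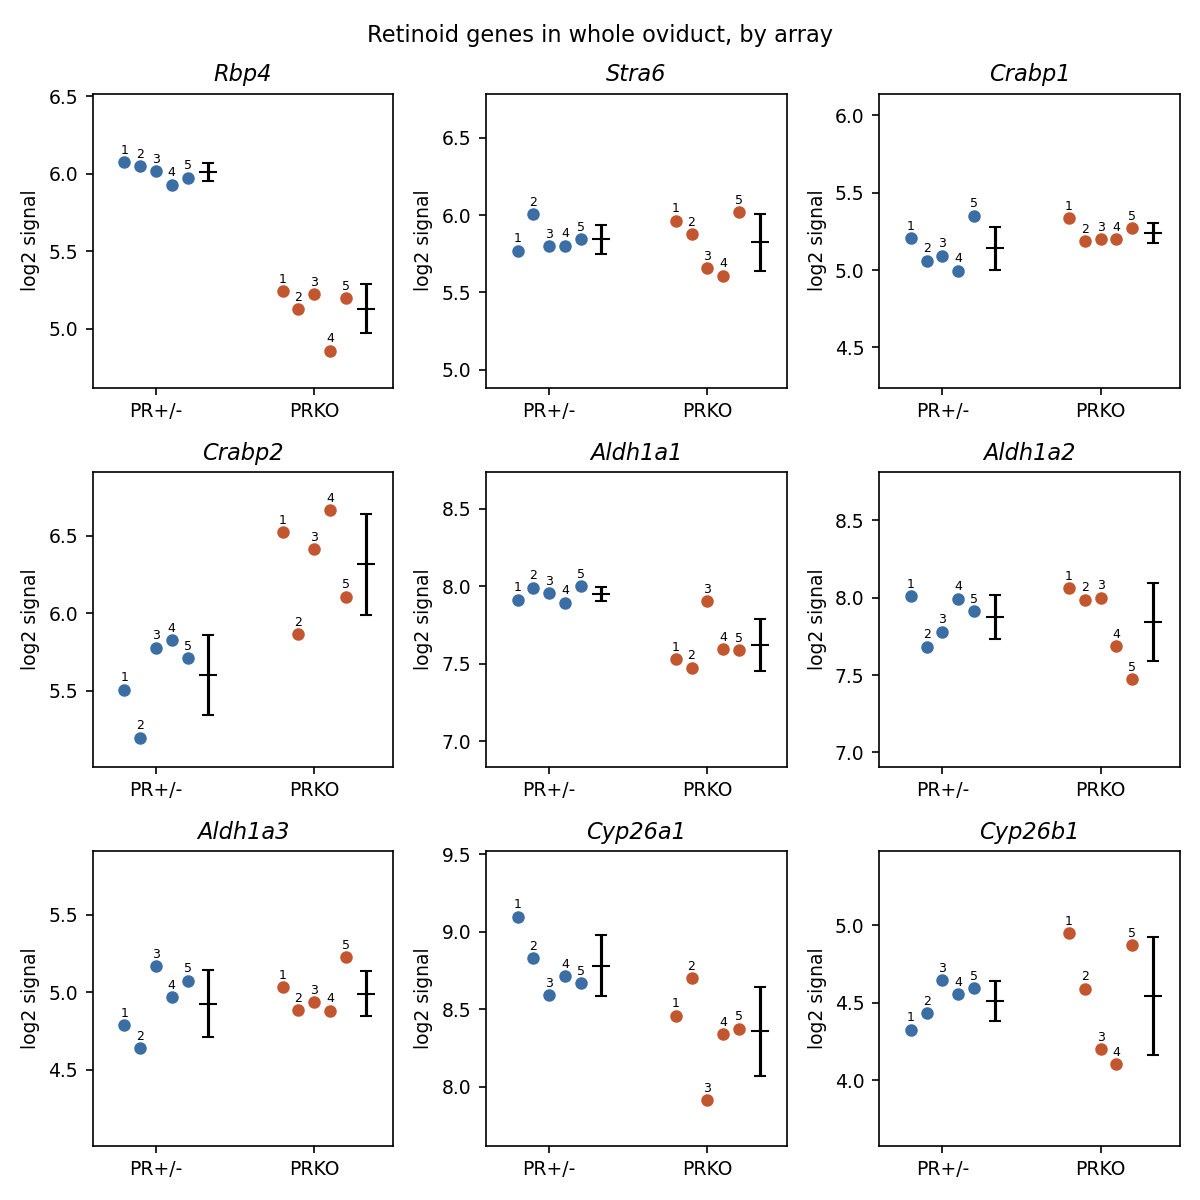
Log2 signal of the 9 retinoid genes (vertical axes, each spanning the same range) on the 5 PR+/- and 5 PRKO arrays; digits give the replicate number, and the black mark is the mean with its SD. Rbp4 and Crabp2 show no overlap between genotypes, and for Aldh1a1 PRKO replicate 3 lies among the PR+/- arrays.

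Rbp4, the carrier of retinol in blood, differed most. Its log2 signal on PR+/- replicates 1 to 5 was 6.08, 6.05, 6.02, 5.93 and 5.98, and on PRKO replicates 1 to 5 it was 5.24, 5.12, 5.22, 4.86 and 5.20. Every PRKO array lay at least as low as 5.24 and every PR+/- array at least as high as 5.93, so the groups did not overlap, as was true of 7.20% of all genes. The means were 6.01 ± 0.058 and 5.13 ± 0.16 (SD, n = 5 each). PRKO oviducts thus held 54.3% of the PR+/- signal, a log2 difference of -0.88 ± 0.083 (SE) with a 95% interval of -1.06 to -0.70 and a limma adjusted p of 1.65e-05. The signal was not bright, with a mean over all arrays of 5.57, at percentile 48.4, against a median of 5.68 over all genes. No detection values were used, so its distance from background is not known, and the percentage describes measured signal only. Rbp4 was called under each of the 23 alternative settings in which it was tested, with log2 differences of -0.94 to -0.81.

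Rbp4 is made mainly by liver and also by fat, so markers of fat that could adhere to the oviduct were read beside it. The 7 measured adipocyte genes had a mean log2 signal of 3.93 to 4.06 on PR+/- arrays and 4.02 to 4.31 on PRKO arrays, and none was called. The brightest of them were Fabp4, a fatty acid carrier, Car3, a carbonic anhydrase, and Plin1, a lipid droplet coat protein, with log2 differences of -0.12, 0.15 and 0.35. Of the 7 differences, 6 were above 0. All 7 genes were dim, with means over all arrays of 2.69 to 4.94, against a median of 5.68 over all genes. Changes in markers this dim may go unseen, and the part of fat in the fall of Rbp4 was not tested. The smooth muscle markers were lower on the same PRKO arrays, and their part in the fall of Rbp4 was not tested. Without the 2 arrays of high ovarian signal, the log2 difference of Rbp4 was -0.92 (limma adjusted p = 1.92e-04).

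The stretches before the outermost annotated start of Rbp4 and of Aldh1a1, the 2 members that fell, are printed from RefSeq's GRCm38.p6 annotation. They show which letters precede that start. Both run 5′ to 3′ towards the start on the gene's own strand, in lower case, and capitals mark matches to TGTNCT, the half-site bound by progesterone and glucocorticoid receptors, or to CCAAT, a common promoter element, on either strand.
Rbp4, chr19:38125322-38125571, minus strand: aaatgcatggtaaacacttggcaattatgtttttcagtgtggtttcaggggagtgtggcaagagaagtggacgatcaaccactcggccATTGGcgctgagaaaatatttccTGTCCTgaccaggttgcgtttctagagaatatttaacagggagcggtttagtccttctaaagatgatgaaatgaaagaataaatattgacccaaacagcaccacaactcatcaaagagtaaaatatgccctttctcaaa
Aldh1a1, chr19:20492333-20492582, plus strand: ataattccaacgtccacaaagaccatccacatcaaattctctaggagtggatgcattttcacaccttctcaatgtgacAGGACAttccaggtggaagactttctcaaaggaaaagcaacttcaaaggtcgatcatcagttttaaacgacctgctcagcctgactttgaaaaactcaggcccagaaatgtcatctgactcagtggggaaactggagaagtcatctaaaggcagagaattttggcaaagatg
The Rbp4 stretch held TGTCCT at position -139 from the start, and CCAAT on the opposite strand at -162. The Aldh1a1 stretch held TGTCCT on the opposite strand at -172. Each gene has 1 further annotated start, inside the gene, whose window is not printed. It lies at chr19:38124811 for Rbp4 and at chr19:20601968 for Aldh1a1. Which start the oviduct uses was not tested. The unprinted window of Rbp4 held TATAAA at -28, and that of Aldh1a1 held CCAAT at -72 and TGTGCT on the opposite strand at -246. Such matches are frequent, since 44.7% of 32851 annotated mouse promoters held TGTNCT in the 250 bases before their start and 33.8% held CCAAT. The promoter table held 7 of the 9 genes, all but Crabp2 and Aldh1a3, in windows of 152 to 250 bases, some of them at starts inside the gene. Of these 7 genes, 5 held TGTNCT, 4 held CCAAT and 2 held TATAAA, the TATA box, in at least 1 window, against 12.4% of all promoters for TATAAA. Some of the 7 have several windows. Those of Cyp26a1 and Cyp26b1 were cut at the first annotated transcript, to 180 and 152 bases, against 250 for all promoters. The bases nearest their listed starts were therefore not read. These counts and the shares of single promoters are thus not on the same footing. In the windows read, none of the 7 held AGGTCA or AGTTCA, half-sites read by retinoic acid receptors, which 14% and 11.8% of all promoters held. None therefore held 2 such half-sites as a direct repeat with 1, 2 or 5 bases between them. A match is a description of letters and no match says only that these letters are not in these windows.

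Stra6, the receptor that takes up retinol from its carrier, did not follow Rbp4. Its log2 signal was 5.77, 6.01, 5.80, 5.80 and 5.85 on PR+/- replicates 1 to 5 and 5.96, 5.88, 5.66, 5.61 and 6.02 on the PRKO replicates. The PRKO arrays fell on either side of the PR+/- ones. The log2 difference was -0.020 ± 0.092 (SE, limma adjusted p = 0.919), with a 95% interval of -0.22 to 0.18, and its sign turned under 4 settings and with single arrays left out.

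Of the 3 ALDH1A enzymes, which make the irreversible step to retinoic acid, Aldh1a1 was called. Whether the differences of the 3 genes differ from each other was not tested. Aldh1a1 gave 7.91, 7.99, 7.96, 7.89 and 8.00 on PR+/- replicates 1 to 5 and 7.53, 7.48, 7.91, 7.60 and 7.59 on the PRKO replicates. On 4 PRKO arrays the signal was at or below 7.60, below every PR+/- array. PRKO replicate 3, the PRKO array with high ovarian signal, lay within the PR+/- range. PR+/- replicate 4, the other array with high ovarian signal, was the lowest of its genotype. The means were 7.95 ± 0.047 and 7.62 ± 0.17 (SD, n = 5 each), a log2 difference of -0.33 ± 0.084 (SE) or 1.26-fold (limma adjusted p = 0.0359). Leaving out PRKO replicate 3 brought the difference to -0.40 (limma adjusted p = 0.00529). Leaving out any other single array ended the call, at limma adjusted p of 0.0576 to 0.0935, as did quantile normalization (-0.27, adjusted p = 0.103) and centring on array medians (-0.30, adjusted p = 0.0546).

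Aldh1a1 has a near-identical relative, Aldh1a7, whose transcripts this array may not tell apart from it. The Aldh1a7 probe set read 4.71 to 5.44 on PR+/- arrays and 3.98 to 4.83 on PRKO arrays, a log2 difference of -0.50 ± 0.16 (SE, limma adjusted p = 0.0907). It was not called, though its difference had the same sign.

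Aldh1a2, the enzyme that makes most retinoic acid in the embryo and is found in mesothelium and stroma, was not called. It read 8.01, 7.68, 7.78, 7.99 and 7.91 on PR+/- replicates 1 to 5 and 8.06, 7.99, 8.00, 7.68 and 7.47 on the PRKO replicates. PRKO replicates 4 and 5 were the low ones, and the other 3 were at 7.99 or above. The same 2 arrays were lowest of all 10 for the mean of 8 mesothelial markers, at 7.16 and 7.03 against 7.31 to 7.48. PR+/- replicate 2 read as low for Aldh1a2 as PRKO replicate 4, at 7.68, with a mesothelial mean of 7.38. The part of mesothelium in the Aldh1a2 signal was not tested. Its log2 difference was -0.034 ± 0.11 (SE, 95% interval -0.28 to 0.21). The third enzyme, Aldh1a3, read 4.79, 4.64, 5.17, 4.97 and 5.07 in PR+/- and 5.03, 4.88, 4.93, 4.88 and 5.23 in PRKO. The groups overlapped, with a log2 difference of 0.065 ± 0.11 (SE, 95% interval -0.16 to 0.29).

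**Figure D2:**
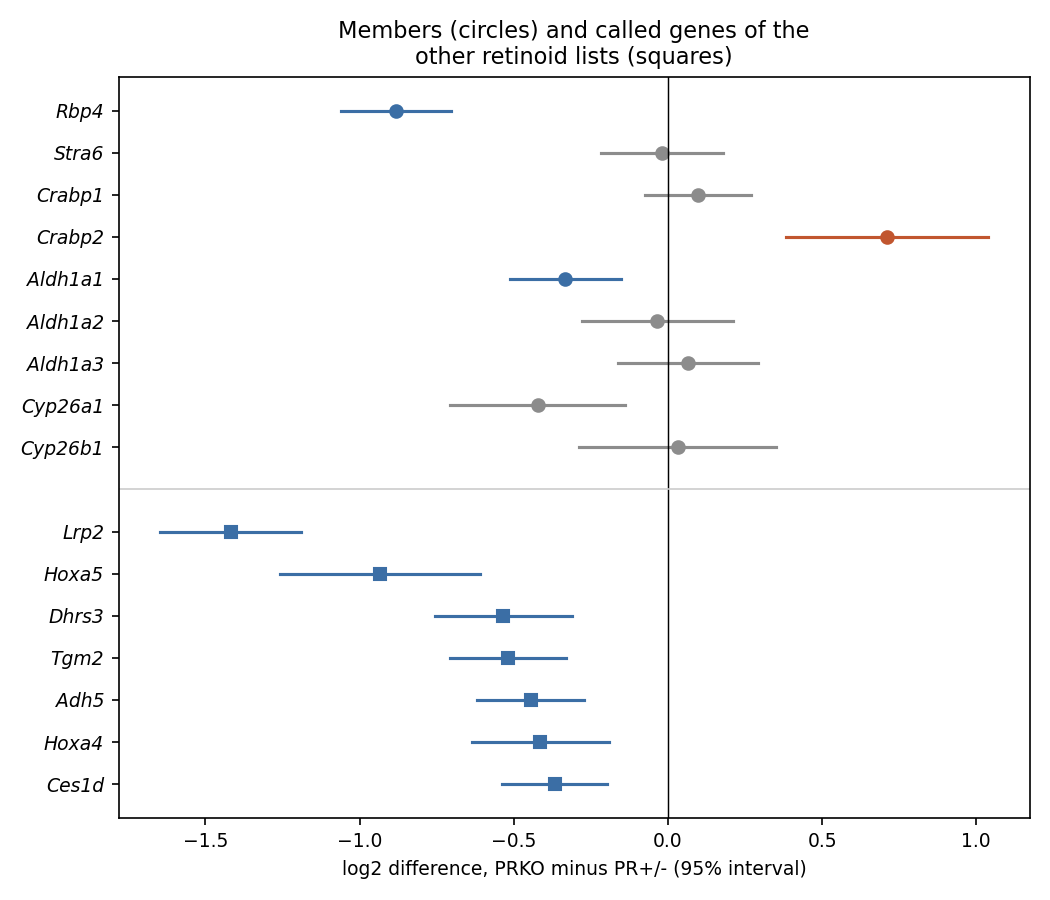
Log2 difference between genotypes (horizontal axis, PRKO minus PR+/-, point with its 95% interval) for the 9 retinoid genes as circles and for the 7 called genes of the other retinoid lists as squares. Orange marks genes called higher, blue those called lower and grey those not called: Crabp2 at 0.71 is the single orange point.

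Crabp2, which hands retinoic acid to its nuclear receptor, was the member that rose. On PR+/- replicates 1 to 5 its log2 signal was 5.51, 5.20, 5.78, 5.83 and 5.71, and on PRKO replicates 1 to 5 it was 6.52, 5.86, 6.41, 6.67 and 6.11. The groups did not overlap, but narrowly, with 5.83 the highest PR+/- array and 5.86 the lowest PRKO array. Both genotypes spread widely, with means of 5.60 ± 0.26 and 6.31 ± 0.33 (SD, n = 5 each). The log2 difference was 0.71 ± 0.15 (SE), or 1.64-fold, with a 95% interval of 0.38 to 1.04 on the log2 scale (limma adjusted p = 0.0146). It stayed called with any single array left out, at limma adjusted p of 0.00379 to 0.0454. The call ended without PRKO replicates 1 and 5 together (0.71, limma adjusted p = 0.0521). It also ended with the interquartile range as a covariate (0.64 ± 0.21 SE, limma adjusted p = 0.213).

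Its relative Crabp1, which binds retinoic acid with similar affinity and is linked to its breakdown, was not called. It read 5.21, 5.06, 5.09, 5.00 and 5.35 on PR+/- replicates 1 to 5 and 5.34, 5.19, 5.20, 5.20 and 5.27 on the PRKO replicates. All PRKO values lay inside the PR+/- range. The log2 difference was 0.097 ± 0.080 (SE, limma adjusted p = 0.507), with a 95% interval of -0.07 to 0.27. Whether the differences of Crabp1 and Crabp2 differ from each other was not tested.

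**Figure D3:**
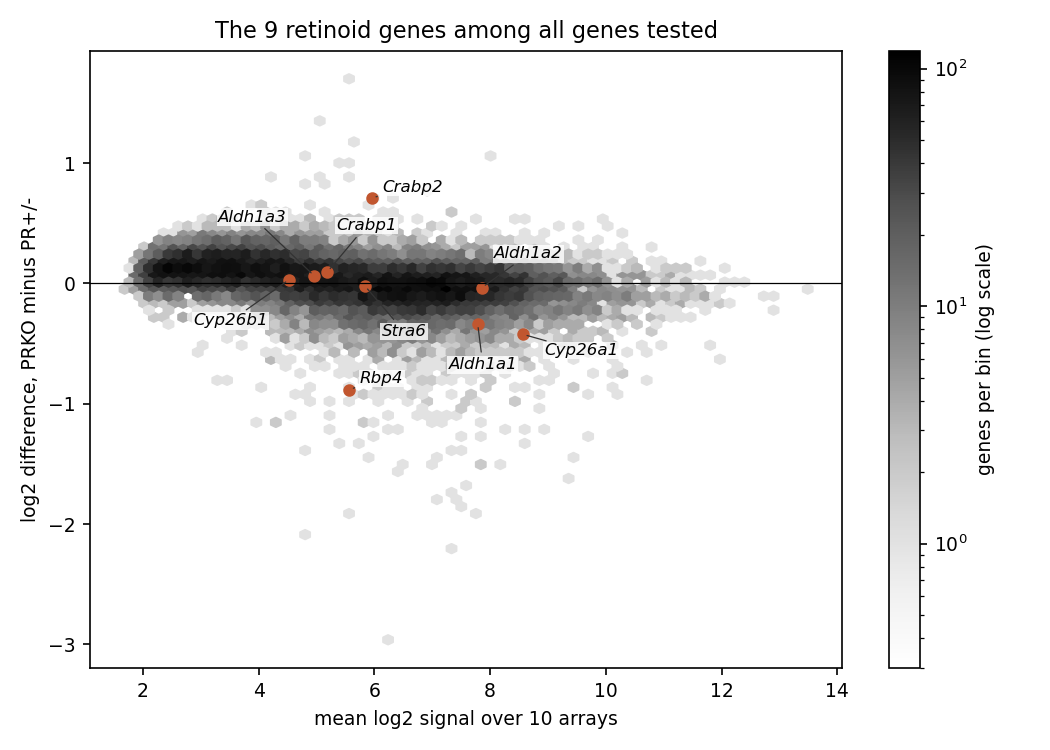
Log2 difference between genotypes (vertical axis) against the mean log2 signal over the 10 arrays (horizontal axis) for all 19938 genes, as hexagonal bins shaded by the number of genes on a log scale, with the 9 retinoid genes as orange points. Crabp2 and Rbp4 lie above and below the dense part of the cloud, at 0.71 and -0.88, and the other 7 lie between -0.42 and 0.10.

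Among the breakdown enzymes, Cyp26a1, the main remover of retinoic acid and itself induced by it, came close to a call. It read 9.10, 8.83, 8.59, 8.71 and 8.67 on PR+/- replicates 1 to 5 and 8.46, 8.70, 7.91, 8.34 and 8.37 on the PRKO replicates. On 4 PRKO arrays the signal was below every PR+/- array, and PRKO replicate 2 lay above 2 of the PR+/- arrays. The log2 difference was -0.42 ± 0.13 (SE, 95% interval -0.71 to -0.14), or 25.4% less signal, with a limma adjusted p of 0.0844. Among the alternatives, it passed without PRKO replicate 2 (-0.51, limma adjusted p = 0.0332), with a variance trend (adjusted p = 0.0429) and with the dimmest 50% of genes left out (adjusted p = 0.0416). Without the 2 arrays of high ovarian signal it was -0.33 (limma adjusted p = 0.213), and with the interquartile range as a covariate -0.23 (limma adjusted p = 0.629).

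Cyp26b1, the second breakdown enzyme, read 4.33, 4.43, 4.65, 4.55 and 4.59 on PR+/- replicates 1 to 5 and 4.95, 4.59, 4.20, 4.10 and 4.87 on the PRKO replicates. PRKO replicates 1 and 5 were above every PR+/- array, and PRKO replicates 3 and 4 were below every one. The mean difference was 0.032 ± 0.15 on the log2 scale (SE, limma adjusted p = 0.919), while the SD was 0.38 in PRKO and 0.13 in PR+/-. Leaving out PRKO replicates 1 and 5, the highest arrays for Cyp26b1, could only lower the log2 difference, which came to -0.21 (limma adjusted p = 0.350).

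The 9 genes were also compared array by array, as deviations from the mean of their own genotype, which leaves out the difference between genotypes. Among the 36 pairs, 2 had a correlation beyond 0.8 in size over the 10 arrays. Aldh1a1 and Cyp26a1 went in opposite directions (r = -0.82, Spearman -0.75). Their r came to -0.40 without PRKO replicates 2 and 3, so its size depends on those arrays. Within PRKO r was -0.97 and within PR+/- it was -0.35, over 5 arrays each. Stra6 and Cyp26b1 went together (r = 0.81, Spearman 0.71, and 0.63 without PRKO replicates 4 and 5), with r of 0.98 within PRKO and -0.14 within PR+/-. For each pair, the 2 arrays left out were those on which the first gene lay farthest from its median, a choice that tends to shrink r. The correlations are descriptions of pools that share their array, its quality and its cell makeup.

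By the same measure, the 3 genes most like each called member over the 10 arrays were listed. For Crabp2 they were Adamts7, Cdc25c and Iqcf3 (r of 0.89, 0.88 and 0.88), and for Rbp4 Aqp2, Emilin1 and Fezf1 (0.96, 0.95 and 0.95). For Aldh1a1 they were Gxylt1, Epyc and Olfr1057 (0.97, 0.94 and 0.93). None of these 9 genes was called between genotypes. Each was picked for the highest r among all genes over only 10 arrays, which by itself yields high values. The listing is therefore no evidence of a shared control. Some of the 9 were dim, with means over the 10 arrays from 2.42 (Olfr1057) and 2.75 (Epyc) up to 6.98 (Emilin1).

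The other genes of retinoid handling were read from 6 lists, of which 71 of 76 genes were measured. Over these 71, 7 were lower in PRKO, 0 were higher and 64 were not called. Over all genes, 3.87% were lower and 1.09% higher. The median log2 difference was -0.012 over the 71 and 0.026 over all genes. In transport, Lrp2, the endocytic receptor megalin that takes up retinol with its carrier, was the called gene of 10 measured. Its signal was 7.78 to 8.33 on PR+/- arrays and 6.49 to 6.75 on PRKO arrays, a log2 difference of -1.42 ± 0.11 (SE), or 2.67-fold lower (limma adjusted p = 2.07e-06). The brightest other genes there were Fabp5, a second carrier of retinoic acid (-0.074), the lipoprotein receptor Scarb1 (-0.42, adjusted p = 0.0810) and the fatty acid receptor Cd36 (0.048), none of them called.

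Of 20 genes that oxidise retinol or reduce retinal, 2 were lower, beside 3.87% of all genes. Dhrs3, which turns retinal back to retinol and is itself raised by retinoic acid, read 7.38 to 7.81 in PR+/- and 6.78 to 7.26 in PRKO (log2 difference -0.53 ± 0.10 SE, limma adjusted p = 0.00769). Adh5, a widely expressed alcohol dehydrogenase that acts mainly on formaldehyde adducts, fell by 0.45 ± 0.081 on the log2 scale (SE, limma adjusted p = 0.00513). The brightest uncalled genes were Adh1, an alcohol dehydrogenase that oxidises retinol (0.28), Rdh10, the main retinol dehydrogenase of the embryo (-0.012), and Dhrs9, another short-chain dehydrogenase (0.22). The values of Dhrs9 did not overlap, with all PRKO arrays between 10.04 and 10.29 and all PR+/- arrays below them, but it was not called (limma adjusted p = 0.101).

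Of 10 genes of retinyl ester and carotenoid handling, Ces1d, a carboxylesterase that can hydrolyse retinyl esters, was lower, by a log2 difference of -0.37 ± 0.080 (SE, limma adjusted p = 0.0158). Without the 2 arrays of high ovarian signal its call was lost at -0.35 (limma adjusted p = 0.0851), as it was without PRKO replicates 1 and 5 (limma adjusted p = 0.0585). Lrat, which stores retinol as esters, Lpl, a lipase, and Dgat1, an acyltransferase, had log2 differences of 0.088, -0.16 and -0.034 and were not called. None of 4 other breakdown genes was called, and the brightest, the cytochrome Cyp2s1, had a log2 difference of -0.30 (limma adjusted p = 0.0792). Cyp26c1 and Cyp1a1 followed at 0.086 and 0.12.

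None of 7 receptor genes was called. Rara, Rxrb and Rxra, the brightest of these nuclear receptors of retinoids, had log2 differences of 0.072, -0.23 and -0.18, and 5 of the 7 differences were below 0. The list's median was -0.18, between single genes at -0.23 and 0.31.

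Of 22 measured genes described elsewhere as responsive to retinoic acid, 4 were lower and 18 were not called, beside 3.87% of all genes lower. Their median log2 difference was -0.042, against 0.026 over all genes. Hoxa5, a positional transcription factor, read 7.91 to 8.40 in PR+/- and 6.78 to 7.64 in PRKO (-0.93 ± 0.15 SE, limma adjusted p = 0.00203). Tgm2, a transglutaminase that crosslinks proteins, fell by 0.52 ± 0.088 (SE, limma adjusted p = 0.00291), and Hoxa4, the neighbour of Hoxa5, by 0.41 ± 0.10 (SE, limma adjusted p = 0.0336). Dhrs3 belongs to this list too. With the interquartile range as a covariate, Adh5, Hoxa4, Hoxa5, Tgm2 and Ces1d lost their calls (limma adjusted p of 0.0772 to 0.115), and Lrp2 and Dhrs3 kept theirs under all 24 alternatives. The call of Hoxa4 ended when any single PR+/- array or PRKO replicate 1 or 4 was left out, at limma adjusted p of 0.0516 to 0.0837. It ended in 14 of 24 alternatives in all, among them quantile normalization (-0.34, limma adjusted p = 0.101), cyclic loess (-0.36, limma adjusted p = 0.0827) and centring on array medians (-0.38, limma adjusted p = 0.0511). Rarb, the receptor that retinoic acid induces through its own promoter, had a log2 difference of -0.043 (limma adjusted p = 0.874), and Meis1, Nrip1 and Meis2, the brightest uncalled genes, had -0.041, 0.14 and -0.13. Smooth muscle markers were lower on the same arrays, and their part in the falls of Hoxa5, Hoxa4 and Tgm2 was not tested.

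**Figure D4:**
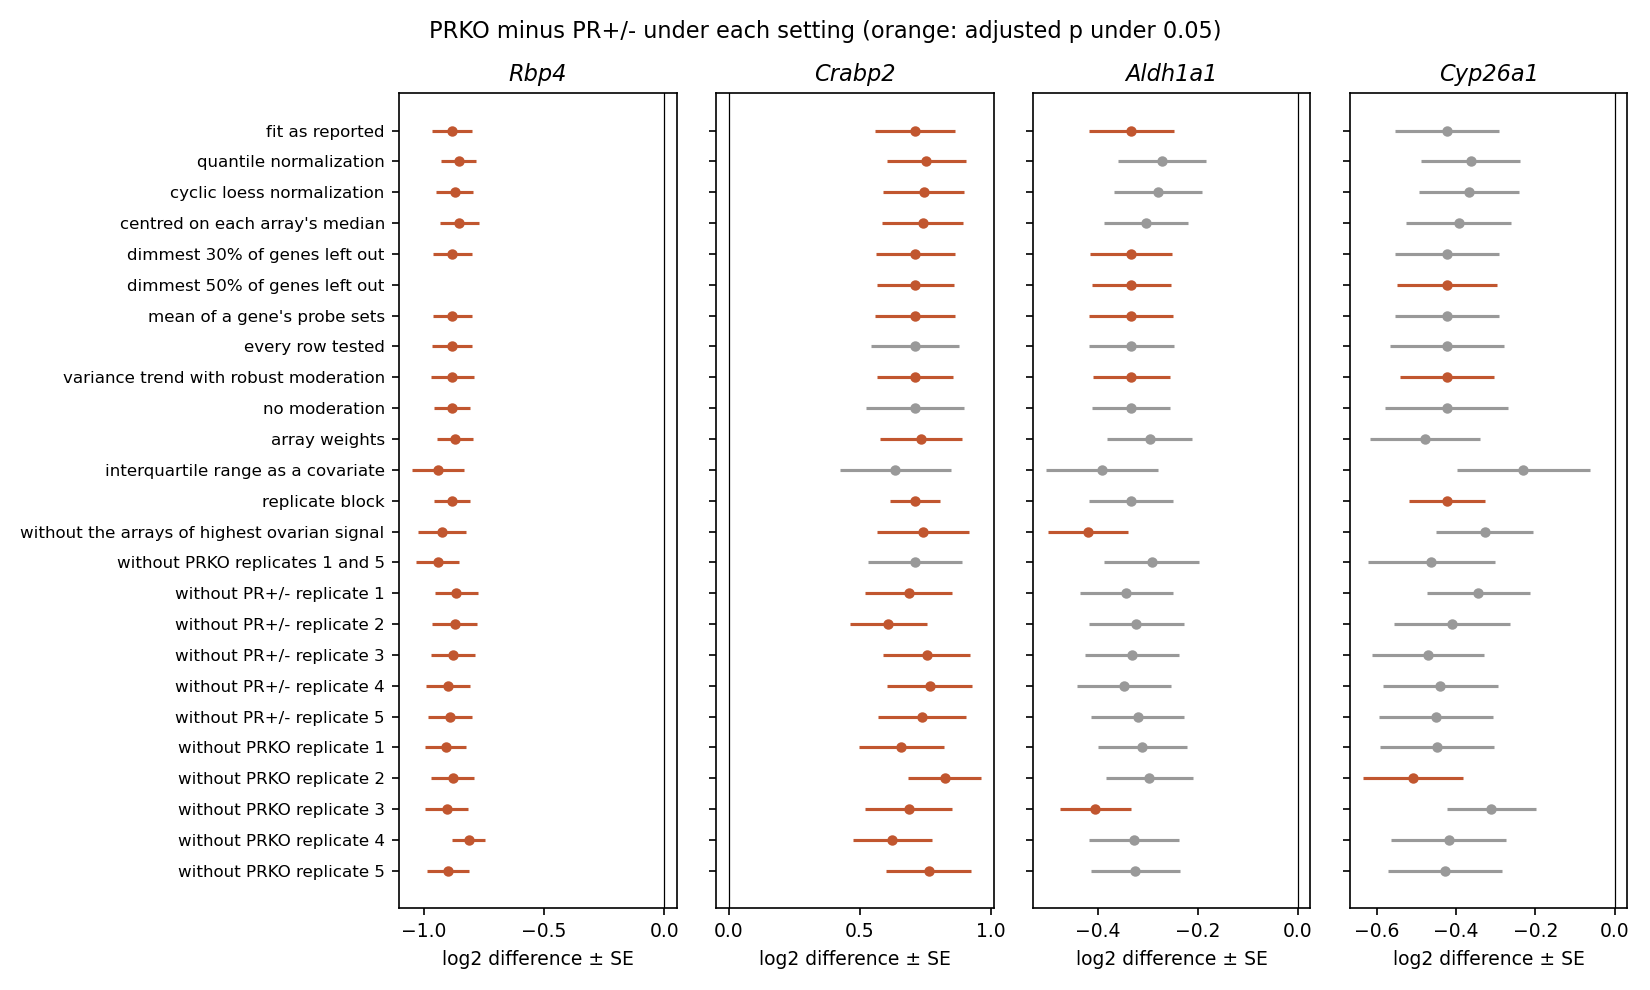
Log2 difference of Rbp4, Crabp2, Aldh1a1 and Cyp26a1 between genotypes (horizontal axes, PRKO minus PR+/-, point with SE) under each setting tried (vertical axis), orange where the adjusted p was under 0.05 and grey otherwise. Rbp4 was called in each setting that kept it, Crabp2 lost its call in 4 of 24 and Aldh1a1 in 18 of 24, and Cyp26a1 gained one in 4 of 24.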

How the data were processed

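The authors deposited a table of log2 signals, with 1 value per probe set for each of 10 Affymetrix arrays. That scale is read from the range of the values, 1.09 to 13.6, and every fold rests on it. Processing was done in Partek, per the submitters' processing notes; for background correction, normalization and genome build, the sources used here state nothing. No detection values were used here, so a low signal may lie near background. Of 35557 rows, 21789 carry 1 symbol in the platform annotation, which gave 19938 genes, each read through its probe set of highest mean. Differences were tested with lmFit and eBayes of limma 3.58.1 (R 4.3.3), modelling genotype alone. Each array is a pool of 3 mice, and p-values reflect variation among such pools, not single mice.

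The members and lists were chosen with earlier results of these data known. All members are named; from each list, every called gene and the 3 others of highest mean signal, and Aldh1a7 and Rarb were added after their values were seen. On simulated data of 19938 genes, the test recovered 22% of changes of 1.25-fold, 78% of 1.5-fold, 98% of 2-fold and 100% of 3-fold, with 13 false calls of 162. The simulated noise was normal and independent between genes, and 50 genes were changed per size. The real fit made 988 calls against 162 here, and the p cutoff of the Benjamini-Hochberg adjustment moves with the number of calls. Recovery on the real arrays, which also share variation between genes, may therefore differ. The other markers read were fibroblast (1 of 6 lower), mesothelial (1 of 8 lower), leukocyte and blood (0 of 6 called), endothelial (2 of 6 lower) and ovarian (1 of 12 higher). For all genes the shares were 3.87% lower and 1.09% higher, and lists this short cannot be set apart from them by 1 or 2 calls. Samples sharing a replicate number were not treated as pairs, because not every pair had a correlation of deviations over 0.1. It was over 0.1 in 4 of 5 pairs, up to 0.16, and -0.013 for replicate 3. Calls with the replicate number as a block are given below.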

Additional observations from a re-analysis of the deposited data

Results flagged for a closer look

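The Aldh1a1 signal of PRKO replicate 3, 7.91 on the log2 scale, lay far from the other 4 PRKO arrays, which reached from 7.48 to 7.60. The gap was 0.72 of the group's range, above the limit of 0.71 set for 5 samples. It was the single case among 34 groups examined over 17 genes, and chance flags about 1 group in 20. The same array had the highest mean of the ovarian markers in PRKO, at 5.07, and the lowest Cyp26a1 signal of all arrays, at 7.91. On PR+/- replicate 4, the other array of high ovarian signal (4.96), Aldh1a1 was the lowest of its genotype, at 7.89, and Cyp26a1 read 8.71. Whether ovarian signal bears on either gene was not tested.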

How the results depend on the processing

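Calls over all genes numbered 988 (217 higher, 771 lower), and 349 higher against 672 lower with arrays centred on their medians. They numbered 322 with the interquartile range as a covariate, 562 without the 2 arrays of high ovarian signal, and 581 to 1165 with single arrays left out (581 without PR+/- replicate 1 and 598 without PR+/- replicate 2). Of the 9 members, 3 were called; 1 was called with every row tested, without moderation, with the covariate and without PRKO replicates 1 and 5, and 2 or 3 with single arrays left out. Of the 71 pathway genes 7 were called, 11 with the dimmest 50% of genes left out or a variance trend, 2 with the covariate, and 6 to 8 with single arrays left out. With the replicate number as a replicate block, 1042 genes, 3 members (Crabp2, Rbp4 and Cyp26a1, at limma adjusted p of 0.0345, but not Aldh1a1, at 0.0513) and 10 pathway genes were called, and 5 of 10 arrays correlated best with their own number; 4 of 5 pairs had a correlation over 0.1.

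Members near 0 changed sign. Stra6 was 0.030 with quantile normalization, 0.0064 with cyclic loess, 0.0095 with centring and 0.011 without the ovarian arrays, and -0.068 to 0.034 with single arrays left out. Aldh1a2 was 0.034 with quantile normalization, 0.020 with cyclic loess, 0.032 with array weights, 0.11 with the covariate and 0.015 without PRKO replicates 1 and 5 (-0.089 to 0.057 with single arrays left out). Cyp26b1 was -0.027, -0.036, -0.027, -0.18 and -0.21 under the same settings (-0.069 to 0.14). Aldh1a3 was -0.15 with the covariate and -0.027 without PRKO replicates 1 and 5 (-0.0076 to 0.12). The cause of these changes was not tested. Crabp2 also lost its call with every row tested and without moderation. Crabp1, Rbp4, Aldh1a3 and Cyp26b1 were among the dimmest 50% of genes, so that setting gave them no value.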
